A study of Homo sapiens with 20 samples.

Results

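The genes examined here encode the autophagy machinery, 46 genes chosen by name from the 28051 named genes in the RNAseq files. They are grouped by the step of the pathway in which their products act. These genes and the wider lists below were chosen with earlier results of these data known. Their counts beside the shares of all genes are therefore descriptions. HL60 cells are promyelocytes from a human AML, kept as an established cell line, and the retinoid ATRA makes them mature into neutrophil-like cells. RNAseq was available for 12 libraries, with 3 replicates each of HK3-null and Cas9 control cells treated for 36 h with 1 µM ATRA and 3 each with 0.01% DMSO. ATACseq was available for 8 libraries, 2 in each of the same 4 groups. The knockout line was made with a lentiviral CRISPR vector against the hexokinase gene HK3, with puromycin selection, and the control line expresses Cas9. The methods describe single clone populations and all HK3-null libraries bear the same knockout label, so p values measure the spread between cultures of a line and not between clones.

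In autophagy a double membrane grows around cytoplasm, closes into an autophagosome and fuses with a lysosome, where the content is broken down. The ULK kinase complex starts the process, a lipid kinase complex around BECN1 and PIK3C3 marks the membrane with PI3P, and ATG9A, the ATG2 proteins and the WIPI proteins supply and shape it. A ubiquitin-like conjugation system then couples small proteins of the ATG8 family (MAP1LC3 and GABARAP proteins) to the membrane, and cargo receptors such as SQSTM1 tie cargo to them. TFEB and TFE3 are transcription factors known for driving lysosomal and autophagy genes. In myeloid cells, autophagy is known to take part in maturation under ATRA.

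Values are normalized counts, obtained by undoing the log2 of the deposited values. They are not scaled by gene length, so levels are compared within a gene and never between genes. Totals were 29056349 to 31549781 normalized counts per library, and the depth before scaling was not recovered here. Fold changes came from limma fitted to the log2 values of 13256 genes with a group mean above 3 (log2), and "rose", "fell", "higher" and "lower" mean a Benjamini-Hochberg adjusted p under 0.05 over those genes. Of the 46 genes, 44 entered the test. The other two were at or near 0 in most libraries. MAP1LC3A, an ATG8 protein, had 0, 1 and 72 normalized counts in Cas9 control ATRA, 9, 0 and 0 in Cas9 control DMSO, 4, 1 and 1 in HK3-null ATRA and 0 in all 3 HK3-null DMSO libraries. OPTN, a mitophagy receptor, had 11 in Cas9 control DMSO replicate 1 and at most 4 in every other library. A count of 0 in a library allows up to 3 counts, a limit that covers counting error only.

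The targeted gene HK3 did not have less RNA in HK3-null libraries than in controls. In DMSO its RNA was higher in HK3-null cells (log2 difference 1.96, adjusted p = 1.11e-05, limma), and in ATRA it did not pass (adjusted p = 0.836, limma). It stood at 90, 65 and 105 normalized counts in Cas9 control DMSO against 344, 302 and 346 in HK3-null DMSO, and at 1305, 1298 and 1850 in Cas9 control ATRA against 1384, 1285 and 1975 in HK3-null ATRA. Counts per gene do not tell what protein a transcript encodes, and libraries are named here as they were labelled. The study reports insertions or deletions at the cut site by sequencing. By mass spectrometry it found no HK3 protein in pooled HL60 knockout clones after vitamin D3, unlike in controls. Promyelocyte markers (MPO, ELANE, PRTN3, AZU1 and CD33) were detected in all 12 libraries. All 5 maturation markers (ITGAM, CD38, TGM2, CYBB and NCF1) rose with ATRA in both genotypes, and 4 of the 5 were already higher in HK3-null than in Cas9 control under DMSO, among them ITGAM with 372, 355 and 322 against 23, 27 and 27 normalized counts. The 5 summed to 269 to 337 normalized counts per library in Cas9 control DMSO, 8439 to 9748 in HK3-null DMSO, 17454 to 19078 in Cas9 control ATRA and 95172 to 103071 in HK3-null ATRA. Among markers of other lineages, CD3E, EPCAM and HBB reached at most 12 normalized counts, and COL1A1 reached 321 in Cas9 control DMSO replicate 1 but at most 33 elsewhere. Whole chromosomes also differed between the genotypes. The median log2 difference of tested genes, HK3-null against Cas9 control, was −0.75 in DMSO and −0.78 in ATRA on chromosome 5, 0.52 and 0.57 on chromosome 6, and 1.10 and 1.06 on chromosome 8. ATG10, ATG12 and SQSTM1 lie on chromosome 5, ATG5 and TFEB on chromosome 6, and RB1CC1 and BNIP3L on chromosome 8. In bulk RNA, a change in the mix of cells and a change in RNA per cell cannot be told apart.

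**Figure D1:**
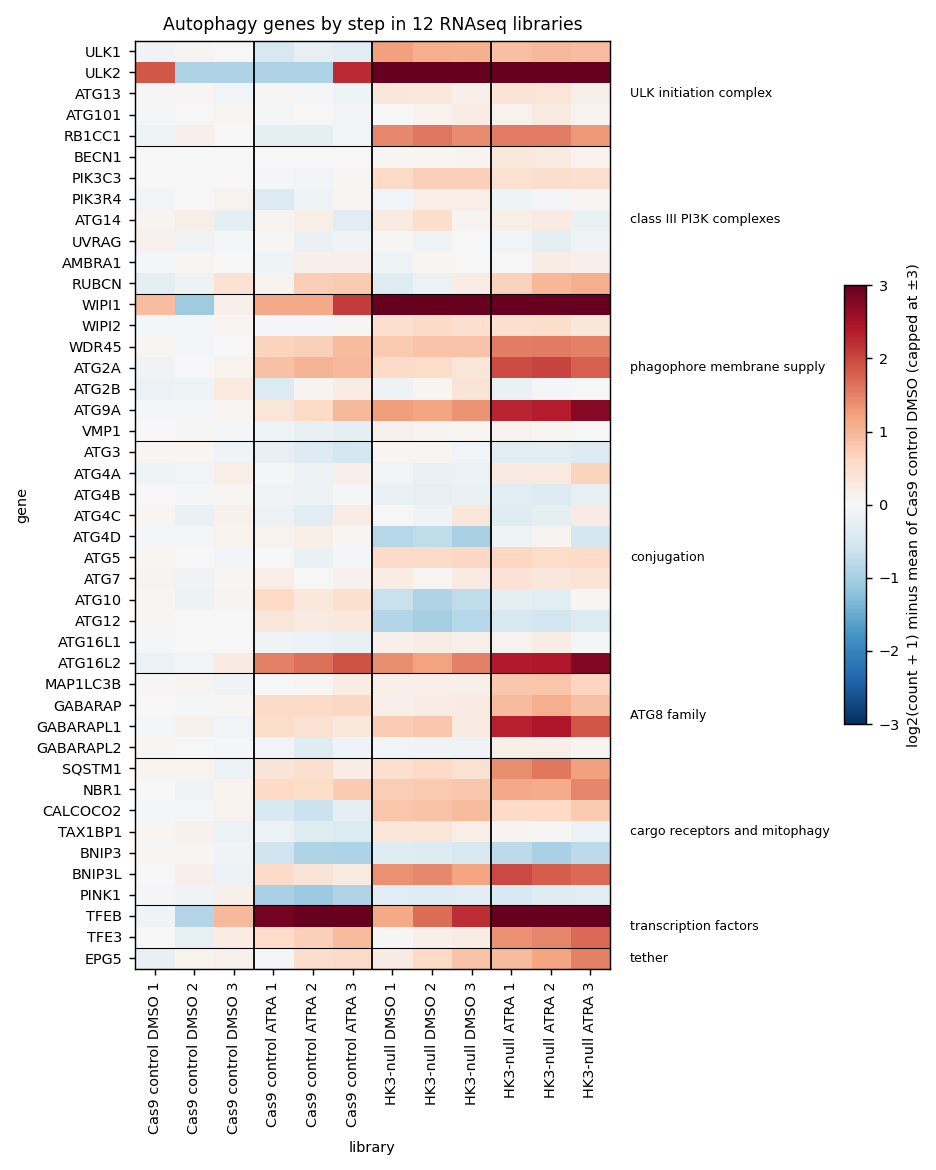
Each row is 1 of the 44 tested autophagy genes, ordered by step, and each column 1 of the 12 RNAseq libraries. Colour is log2(normalized count + 1) minus the mean of the 3 Cas9 control DMSO libraries, capped at 3 in either direction, so red is higher and blue lower than in untreated controls; ULK2 and WIPI1 are red in all 6 HK3-null libraries and TFEB is red in all 6 ATRA libraries.

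The first comparison asked how the autophagy genes responded to ATRA in Cas9 control cells. TFEB, ATG16L2 and WIPI1 rose most, and PINK1, BNIP3 and CALCOCO2 fell most. Of the 44 tested genes, 13 rose, against 20.3% of all tested genes, and 7 fell, against 21.3%. With a fold of at least 1.5 added, 9 rose (11.2% of all genes) and 2 fell (7.79%). The median log2 fold change lay at 0.00 for the 44 genes and for all genes. With a block for replicate number, which the pairing of the libraries calls for, 17 rose and 12 fell, against 27.5% and 28.4% of all genes. The block added ATG7, EPG5, GABARAPL1 and RUBCN to the rises and ATG16L1, ATG4B, GABARAPL2, PIK3R4 and RB1CC1 to the falls.

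TFEB was at 11, 6 and 24 normalized counts in Cas9 control DMSO and at 92, 184 and 196 in Cas9 control ATRA. The groups were far apart, although counts in DMSO were low, and the log2 fold change was 3.68 (standard error 0.52, adjusted p = 0.000188, limma). The related factor TFE3 went from 459 ± 69.5 to 762 ± 106 normalized counts (mean ± SD, n = 3), a rise of 0.73 on the log2 scale (adjusted p = 0.00105, limma). Both transcription factors thus rose.

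ATG16L2, a relative of the ATG16L1 scaffold that positions the conjugation complex, had 682, 725 and 907 normalized counts in Cas9 control DMSO and 2191, 2417 and 2901 in Cas9 control ATRA. Every ATRA library was above every DMSO library, and the means differed 3.25-fold (log2 fold change 1.70, standard error 0.15, adjusted p = 4.56e-06, limma). ATG16L1 itself had 1295 ± 26.7 and 1149 ± 48.6 normalized counts and did not pass (adjusted p = 0.0633, limma; lower with the block). Among the other genes of conjugation, the ubiquitin-like protein ATG12 and the E2-like enzyme ATG10 rose by 0.31 and 0.47 on the log2 scale. ATG3, the E2-like enzyme for the ATG8 family, fell by 0.38, and 7 of the 11 did not pass.

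WIPI1, which binds PI3P on the growing membrane, was scarce in Cas9 control cells, with 11, 2 and 6 normalized counts in DMSO and 13, 13 and 26 in ATRA. The lowest ATRA libraries were just above the highest DMSO library, and the log2 fold change of 1.69 had a standard error of 0.51 (adjusted p = 0.0208, limma). Of the 7 genes of membrane supply, 4 rose. WDR45, another PI3P-binding protein, rose 1.72-fold, the lipid transfer protein ATG2A rose 1.94-fold, and the scramblase ATG9A rose 1.59-fold. VMP1, a membrane protein of the endoplasmic reticulum, fell to 0.859 of its level in DMSO (adjusted p = 0.00902, limma).

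PINK1, the kinase that marks damaged mitochondria for mitophagy, was at 828, 785 and 944 normalized counts in Cas9 control DMSO and at 431, 396 and 454 in Cas9 control ATRA. The groups did not overlap and the level in ATRA was 0.501 of that in DMSO (log2 fold change −0.995, standard error 0.083, adjusted p = 3.43e-06, limma). BNIP3, a mitophagy receptor of the outer mitochondrial membrane, went from 725, 740 and 654 to 463, 377 and 373 normalized counts. Again no ATRA library reached a DMSO library (log2 fold change −0.81, standard error 0.10, adjusted p = 7.14e-05, limma). Its relative BNIP3L moved the other way, from 294 ± 31.6 to 392 ± 41.4 normalized counts (log2 fold change 0.41, adjusted p = 0.0147, limma).

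CALCOCO2, a receptor for bacteria and mitochondria, had 1422, 1454 and 1609 normalized counts in Cas9 control DMSO and 1082, 956 and 1222 in ATRA, and fell by 0.47 on the log2 scale (standard error 0.09, adjusted p = 0.00196, limma). The groups did not overlap. All 7 tested genes of cargo reception and mitophagy passed, 3 upward (SQSTM1, NBR1 and BNIP3L) and 4 downward (PINK1, BNIP3, CALCOCO2 and TAX1BP1). In the ULK complex, ULK1 fell by 0.36 on the log2 scale and the other 4 genes did not pass. None of the 7 genes of the class III PI3K complexes passed, with log2 fold changes from −0.17 for PIK3R4 to 0.55 for RUBCN. At an unadjusted p under 0.05, 1 of the 7 passed, RUBCN, and with the replicate block RUBCN rose (adjusted p = 0.00128, limma) and PIK3R4 fell (adjusted p = 0.0225, limma).

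In HK3-null cells, 21 of the 44 genes rose with ATRA, against 24% of all tested genes, and 5 fell, against 25.1%. With a fold of at least 1.5 added, 13 rose (13.6% of all genes), while the 5 falls stayed under that fold (12.9% of all genes fell by as much). The median log2 fold change was 0.16 for the autophagy genes and 0.01 for all genes. With the replicate block, 22 rose and 10 fell, against 30.6% and 30.7% of all genes. The block added AMBRA1 to the rises and ATG14, ATG4B, CALCOCO2, PIK3R4 and UVRAG to the falls. Without HK3-null DMSO replicate 2 the genes that fell numbered 3.

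TFEB again rose most, from 27, 40 and 58 normalized counts in HK3-null DMSO to 353, 704 and 850 in HK3-null ATRA (log2 fold change 3.91, standard error 0.52, adjusted p = 7.81e-05, limma). The lowest ATRA library was several times the highest DMSO library. TFE3 went from 502 ± 32.1 to 1301 ± 151 normalized counts, 2.59-fold.

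GABARAPL1, an ATG8 protein, had 528, 543 and 371 normalized counts in HK3-null DMSO and 1554, 1673 and 1148 in HK3-null ATRA. Replicate 3 was the lowest in both groups, and the groups did not overlap (log2 fold change 1.60, standard error 0.17, adjusted p = 1.1e-05, limma). All 4 tested ATG8 genes rose in HK3-null cells, by 0.25 for GABARAPL2, 0.57 for MAP1LC3B and 0.77 for GABARAP on the log2 scale. In Cas9 control cells GABARAP passed, with a log2 fold change of 0.59, and the other 3 did not.

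ATG2A had 1410, 1398 and 1219 normalized counts in HK3-null DMSO and 3705, 3858 and 3274 in HK3-null ATRA, a 2.69-fold rise (log2 fold change 1.43, standard error 0.09, adjusted p = 1.47e-07, limma). ATG9A rose 2.31-fold, from 858, 819 and 909 to 1758, 1850 and 2376 normalized counts. In both genes the DMSO and ATRA libraries were well apart. ATG16L2 rose 2.22-fold and WDR45 1.63-fold. RUBCN, an inhibitor of the UVRAG-containing lipid kinase complex, rose from 464 ± 97.2 to 945 ± 127 normalized counts (log2 fold change 1.04, adjusted p = 0.00297, limma), and EPG5, the tether between autophagosome and lysosome, rose by 0.65 on the log2 scale (adjusted p = 0.0193, limma).

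Of the genes that fell in HK3-null cells, BNIP3 went from 549, 540 and 509 to 411, 357 and 406 normalized counts (log2 fold change −0.45, standard error 0.10, adjusted p = 0.00311, limma), with no overlap. ATG3 went from 3177 ± 160 to 2446 ± 46.8 (log2 fold change −0.38, adjusted p = 0.00154, limma). TAX1BP1, a receptor for ubiquitin-marked cargo, went from 7245 ± 468 to 5764 ± 523 normalized counts (log2 fold change −0.33, adjusted p = 0.0136, limma). ULK1 and PIK3C3, the lipid kinase itself, fell by 0.20 and 0.18.

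Set side by side, 12 genes rose in both genotypes (ATG10, ATG12, ATG16L2, ATG2A, ATG9A, BNIP3L, GABARAP, NBR1, SQSTM1, TFE3, TFEB and WDR45) and 4 fell in both (ATG3, BNIP3, TAX1BP1 and ULK1). A further 14 passed in neither, among them ATG2B, ATG4C, ATG13, ATG101, ATG5 and WIPI2. With the replicate block, 16 rose in both (ATG7, EPG5, GABARAPL1 and RUBCN added), 7 fell in both (ATG4B, CALCOCO2 and PIK3R4 added) and 7 passed in neither (the 6 just named and ULK2), while GABARAPL2 fell in Cas9 control and rose in HK3-null cells. Across the 44 genes, the log2 fold changes in the 2 genotypes, which share no library, had a Spearman's rho of 0.838, and across all 13256 genes 0.744. The sign was the same for 88.6% of the 44 genes and for 81.2% of all genes. The share of all genes that rose or fell in both genotypes was not computed, so the joint counts stand without a background. Genes are not independent replicates, so these are descriptions.

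**Figure D2:**
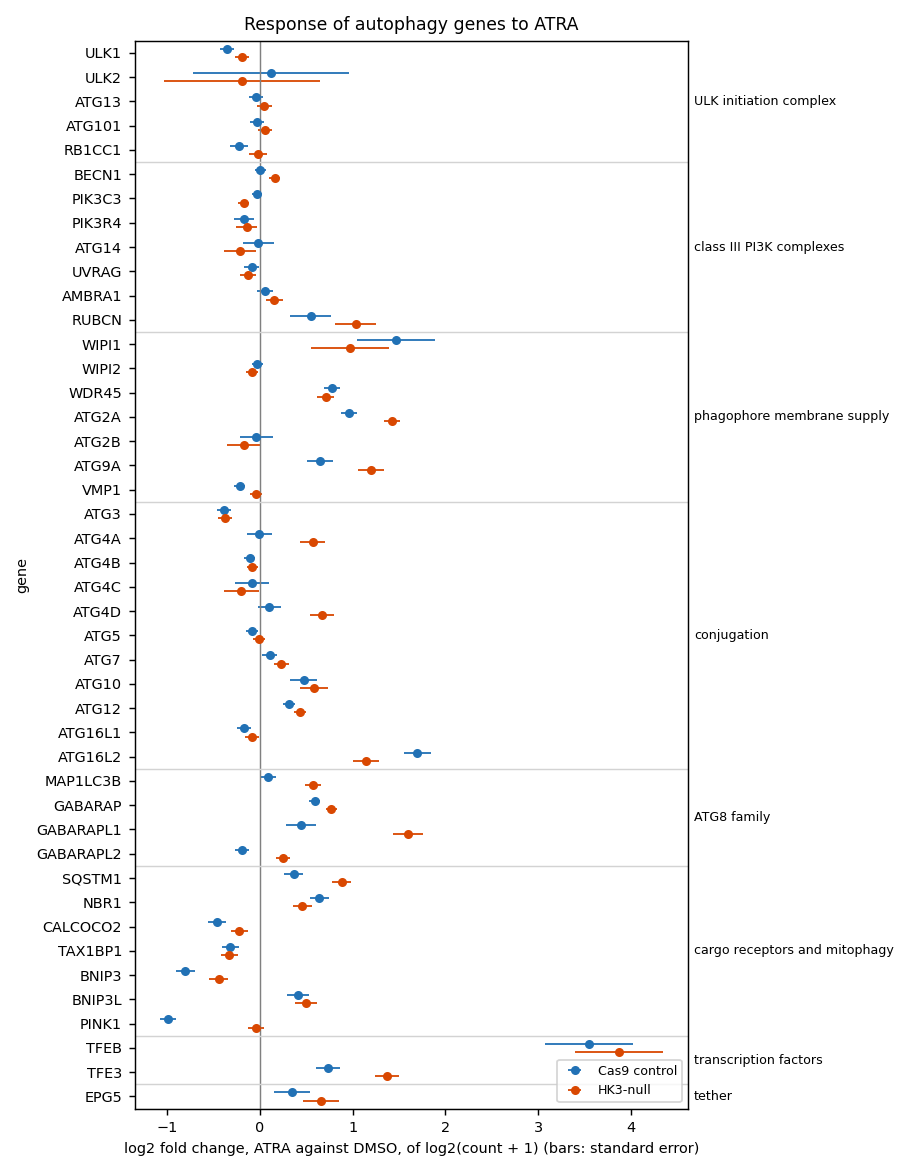
Log2 fold change of ATRA against DMSO for the 44 tested genes, grouped by step, in Cas9 control (blue) and HK3-null cells (orange), from limma on log2(normalized count + 1) with standard errors as bars. TFEB lies farthest to the right in both genotypes, and PINK1 lies near −1 in Cas9 control and near 0 in HK3-null cells.

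Promoters were examined for the E-box CACGTG, the core of the element bound by TFEB and TFE3. RefSeq windows of 300 bases on GRCh38, from 250 bases before the start to 50 after it, were found for 39 of the 46 genes. The E-box stood in 3 of the 39 (ATG3, BNIP3 and ATG14), on a palindrome that reads alike on both strands, and in 7.43% of all 27305 promoters. The longer CLEAR element, a palindrome around the E-box, stood in 0 of the 39 and in 0.381% of all promoters. The 250 bases before the start are printed, 5′ to 3′ on the minus strand, for the 2 of these genes that fell with ATRA in both genotypes, with the E-box in capitals; the ATG3 window is chr3:112561963-112562212 and the BNIP3 window chr10:131981924-131982173. A match describes letters in the window and not binding.
ATG3: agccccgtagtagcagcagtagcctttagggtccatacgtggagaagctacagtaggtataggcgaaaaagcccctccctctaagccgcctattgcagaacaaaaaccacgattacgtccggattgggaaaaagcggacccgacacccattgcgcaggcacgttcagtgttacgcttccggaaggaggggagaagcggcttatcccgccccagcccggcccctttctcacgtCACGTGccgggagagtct
BNIP3: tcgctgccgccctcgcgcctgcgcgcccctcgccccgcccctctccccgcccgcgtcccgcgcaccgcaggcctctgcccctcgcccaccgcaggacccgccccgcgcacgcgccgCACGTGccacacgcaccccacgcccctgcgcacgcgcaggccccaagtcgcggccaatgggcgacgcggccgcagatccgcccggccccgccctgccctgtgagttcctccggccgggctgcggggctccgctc

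The next comparison asked how HK3-null cells differed from Cas9 control cells without ATRA. ULK2, WIPI1 and TFEB were higher by the largest folds and ATG12, ATG4D and ATG10 lower. Of the 44 genes, 22 were higher, against 27.9% of all tested genes, and 6 were lower, against 27.1%. With a fold of at least 1.5 added, 14 were higher (17.4% of all genes) and 3 lower (14.7%). The median log2 difference was 0.20 for the autophagy genes and 0.00 for all genes. Among the 37 genes outside the chromosomes with a shifted median (5, 6, 8, 13 and 15), 17 were higher and 4 lower, with a median of 0.18. The share of all tested genes outside those chromosomes was not computed. With the replicate block 25 were higher and 6 lower, against 33.8% and 32.9% of all genes. The block added ATG14, ATG7 and VMP1 to the genes that were higher.

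ULK2, a kinase that starts autophagy as its relative ULK1 does, was almost absent from Cas9 control cells, with 6, 0 and 0 normalized counts in DMSO and 0, 0 and 8 in ATRA. HK3-null cells had 61, 80 and 74 in DMSO and 62, 64 and 60 in ATRA. All 6 HK3-null libraries were far above all 6 Cas9 control libraries. Summed over libraries, the ratio was 35.8 in DMSO (95% binomial interval on normalized counts 16.2 to 98.7, approximate, counting error only) and 23.2 in ATRA (11.6 to 54.7). ULK2 passed the filter on low values only through its HK3-null libraries, and its fitted values depend on the log2 of 0.001 deposited for a 0. It counts among the higher genes, but neither its p nor the intervals on its ratios are used as support. Those intervals do not measure the spread between cultures. ULK1 was higher in the same libraries, with 2628, 2400 and 2334 normalized counts in HK3-null DMSO against 1042, 1186 and 1139 in Cas9 control DMSO (log2 difference 1.13, adjusted p = 1.93e-07, limma). RB1CC1, the scaffold of the complex, was 2.77-fold higher in DMSO, on a chromosome whose median was raised; with that median subtracted its log2 difference was 0.38 (adjusted p = 0.00654, limma). ATG13 was 1.21-fold higher, and ATG101 had 1346 ± 104 against 1250 ± 54.1 normalized counts and did not pass, so that 4 of the 5 genes of the ULK complex were higher, ULK2 included.

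WIPI1 had 70, 60 and 60 normalized counts in HK3-null DMSO against 11, 2 and 6 in Cas9 control DMSO (log2 difference 3.63, standard error 0.51, adjusted p = 0.000101, limma). In ATRA it had 131, 133 and 111 against 13, 13 and 26. The genotypes did not overlap under either treatment. The bases upstream of ULK2 and WIPI1, the 2 genes with the largest differences between the genotypes, are printed with CpG in capitals because their RNA lay near 0 in controls. CpG methylation was not measured, and the letters alone say nothing of it. The ULK2 window, chr17:19867937-19868186 on the minus strand of GRCh38, holds 32 CpG, a number that 9.26% of all 27305 promoter windows reach, and the WIPI1 window, chr17:68457497-68457746 on the minus strand, holds 26, which 19.2% reach. The median over all windows was 11.
ULK2: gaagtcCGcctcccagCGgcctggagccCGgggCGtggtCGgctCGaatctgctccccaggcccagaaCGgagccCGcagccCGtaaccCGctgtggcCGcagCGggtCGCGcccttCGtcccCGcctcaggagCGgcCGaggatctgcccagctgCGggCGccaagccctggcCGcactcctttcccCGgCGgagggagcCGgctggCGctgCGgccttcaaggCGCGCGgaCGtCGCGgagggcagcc
WIPI1: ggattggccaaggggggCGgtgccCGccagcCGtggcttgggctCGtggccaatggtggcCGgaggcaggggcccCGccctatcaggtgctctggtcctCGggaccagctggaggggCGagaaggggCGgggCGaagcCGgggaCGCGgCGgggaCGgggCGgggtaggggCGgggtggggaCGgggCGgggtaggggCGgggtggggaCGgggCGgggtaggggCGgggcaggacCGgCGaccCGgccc

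TFEB was higher in HK3-null DMSO, with 27, 40 and 58 against 11, 6 and 24 normalized counts, the lowest HK3-null library standing just above the highest control (log2 difference 1.77, standard error 0.52, adjusted p = 0.013, limma). TFEB lies on chromosome 6, and with the median of that chromosome subtracted the difference was 1.25 and no longer passed (adjusted p = 0.0664, limma). TFE3 had 502 ± 32.1 against 459 ± 69.5 normalized counts and did not pass.

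In membrane supply, 5 of 7 genes were higher, and ATG2B and VMP1 did not pass. ATG9A had 858, 819 and 909 normalized counts in HK3-null DMSO against 350, 352 and 376 in Cas9 control DMSO, 2.4-fold. WDR45 was 1.78-fold, WIPI2 1.44-fold and ATG2A 1.41-fold higher. Among the class III PI3K genes, PIK3C3 was 1.59-fold higher, and BECN1, PIK3R4, ATG14, UVRAG, AMBRA1 and RUBCN did not pass, with log2 differences from −0.11 to 0.29.

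The genes that were lower belonged mostly to conjugation, in which 4 of 11 were lower and 3 higher. ATG12 had 582, 532 and 590 normalized counts in HK3-null DMSO against 1086, 1058 and 1061 in Cas9 control DMSO, and ATG10 had 82, 69 and 76 against 136, 117 and 138. Neither overlapped between genotypes, with log2 differences of −0.91 and −0.78 (adjusted p = 3.3e-07 and 0.000751, limma). Both lie on chromosome 5, and with its median subtracted they were at −0.16 (adjusted p = 0.054, limma) and −0.03 (adjusted p = 0.879, limma). ATG5, the partner of ATG12, lies on chromosome 6 and was higher by 0.59, or 0.07 with the median of that chromosome subtracted (adjusted p = 0.394, limma).

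ATG4D, a protease that trims ATG8 proteins, is on chromosome 19, whose median difference was 0.07 in DMSO. It had 459, 486 and 421 normalized counts in HK3-null DMSO against 801, 796 and 882 in Cas9 control DMSO, 0.551 of the control level with no overlap (log2 difference −0.86, standard error 0.13, adjusted p = 0.000147, limma). In ATRA it had 754, 869 and 575 against 882, 927 and 851, where the groups overlapped and the difference did not pass (adjusted p = 0.0659, limma; lower with the replicate block). ATG4B was lower by 0.22 in DMSO and by 0.20 in ATRA, where its counts were 2093 ± 120 against 2397 ± 79.6. ATG16L2 went the other way, with 2000, 1773 and 2187 against 682, 725 and 907 normalized counts in DMSO (log2 difference 1.37, adjusted p = 1.18e-05, limma).

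Among cargo receptors, SQSTM1 had 5064, 5377 and 4829 normalized counts in HK3-null DMSO against 3725, 3783 and 3158 in Cas9 control DMSO, higher by 0.52 on the log2 scale although the median of its chromosome 5 was lower. CALCOCO2 was 1.84-fold, NBR1 1.71-fold and TAX1BP1 1.24-fold higher. BNIP3L was 2.52-fold higher on chromosome 8, and with the median of that chromosome subtracted its log2 difference was 0.24 (adjusted p = 0.116, limma). BNIP3 and PINK1 were lower, by 0.41 and 0.34 on the log2 scale. Thus 5 of 7 tested receptor and mitophagy genes were higher and 2 lower.

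**Figure D3:**
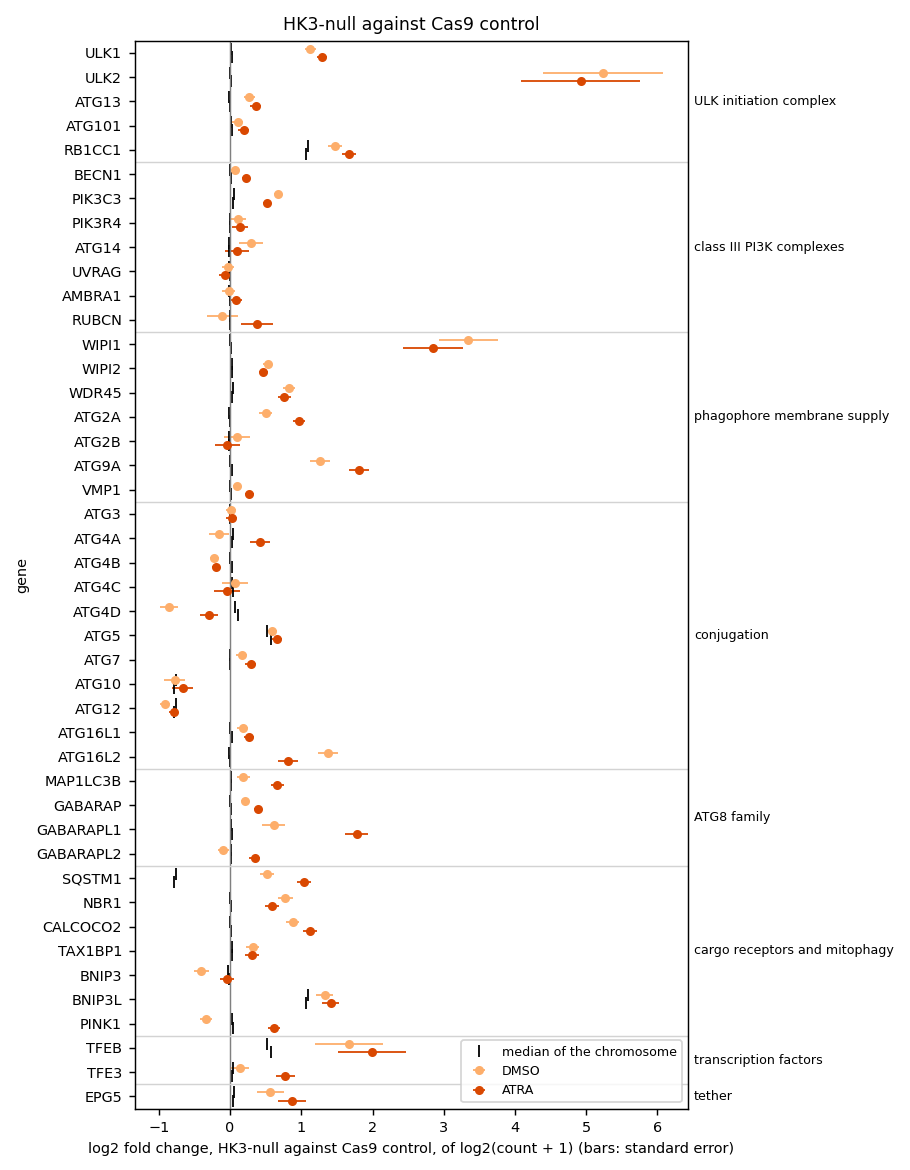
Log2 difference of HK3-null against Cas9 control for the 44 tested genes, grouped by step, in DMSO (light) and ATRA (dark), from limma on log2(normalized count + 1) with standard errors as bars. Black ticks mark the median of all tested genes on the same chromosome; ATG10, ATG12 and ATG5 lie near their ticks, SQSTM1 lies far to the right of its tick, and ULK2 and WIPI1 lie farthest right.

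With ATRA, 31 of the 44 genes were higher in HK3-null cells, against 29.6% of all tested genes, and 3 were lower, against 29.5%. With a fold of at least 1.5 added, 19 were higher (18.8% of all genes) and 2 lower (17.6%). The median log2 difference was 0.41, against 0.01 for all genes. Outside the shifted chromosomes 26 of 37 were higher and 1 lower, with a median of 0.38. The matching share of all tested genes was not computed here either. With the replicate block 33 were higher and 4 lower, against 35.3% and 34.9% of all genes. The block added PIK3R4 and RUBCN to the higher genes and ATG4D to the lower ones. Maturation markers were higher in the same libraries (5 of 5), and their part in the result was not tested.

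All 5 genes of the ULK complex and all 4 tested ATG8 genes were higher, as were both transcription factors, 6 of 7 genes of membrane supply and 6 of 7 of cargo reception and mitophagy. The 5 include ULK2, which passed the filter only through its HK3-null libraries and whose p is not used as support. They also include RB1CC1, whose log2 difference was 1.68 on chromosome 8, where the median was 1.06. In the ULK complex ATG101 had the smallest difference, 0.19 on the log2 scale (adjusted p = 0.0371, limma), and it did not pass under quantile normalization (adjusted p = 0.0805, limma) or with chromosome medians subtracted (adjusted p = 0.0778, limma). TFEB had 353, 704 and 850 normalized counts against 92, 184 and 196, without overlap (4.04-fold, adjusted p = 0.00608, limma), and with the chromosome median subtracted its log2 difference was 1.43 (adjusted p = 0.0355, limma). ULK1 was 2.45-fold higher, ATG9A 3.49-fold, CALCOCO2 2.17-fold and WDR45 1.69-fold. In conjugation 5 of 11 were higher and 3 lower: ATG12 had 767, 730 and 800 normalized counts against 1376, 1278 and 1329, ATG10 had 108, 102 and 133 against 198, 162 and 183, and ATG4B was given above. With the median of chromosome 5 subtracted, ATG12 stood at −0.01 and ATG10 at 0.12 (adjusted p = 0.886 and 0.526, limma). ATG5, counted among the higher genes, had a log2 difference of 0.66 on chromosome 6, where the median was 0.57.

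Over both treatments, 22 genes were higher in HK3-null cells in DMSO and in ATRA and 3 were lower in both. The sign was the same in both treatments for 84.1% of the 44 genes and for 84.4% of all tested genes. The share of all genes that passed in both treatments was not computed. The 8 genes that passed in neither were AMBRA1, ATG14, ATG2B, ATG3, ATG4C, PIK3R4, RUBCN and UVRAG. With the replicate block 24 were higher in both, 4 lower in both and 5 passed in neither, since ATG14 was higher in DMSO and PIK3R4 and RUBCN were higher in ATRA. ATG3 had nearly equal means in the 2 genotypes, 3151 ± 194 and 3177 ± 160 normalized counts in DMSO and 2421 ± 248 and 2446 ± 46.8 in ATRA. PINK1 was the only gene that was lower in DMSO and higher in ATRA.

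The difference between the ATRA responses of the 2 genotypes was then tested itself, as the interaction of genotype and treatment. It passed for 6 of the 44 genes, all with a positive interaction, against 9.12% of all tested genes in either direction (4.48% in this one and 4.64% in the other). A positive interaction means a signed log2 change with ATRA that lies higher in HK3-null than in Cas9 control cells, be it a larger rise, a smaller fall or a rise in place of a fall. With the replicate block it passed for 16 genes, against 21.9% of all genes (10.3% with a positive and 11.5% with a negative interaction). Of these, 15 had the same direction, the added ones being ATG4A, ATG4D, ATG9A, BNIP3, CALCOCO2, EPG5, RUBCN, TFE3 and VMP1, and ATG16L2 had the other (−0.55, adjusted p = 0.00142, limma). The count ranged from 2 to 8 when single libraries were left out, with 2 without HK3-null DMSO replicate 2 and 3 without HK3-null ATRA replicate 1, HK3-null ATRA replicate 2 or HK3-null DMSO replicate 3.

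PINK1 had the smallest adjusted p. It fell with ATRA in Cas9 control cells, as given above, and stood at 672, 664 and 681 normalized counts in HK3-null DMSO and 619, 658 and 685 in HK3-null ATRA. These HK3-null groups overlapped and lay between the levels of the 2 control groups. The interaction was 0.95 (standard error 0.12, adjusted p = 0.000454, limma), and it passed in all 12 fits that left out a library.

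The ATG8 genes GABARAPL1, GABARAPL2 and MAP1LC3B followed. GABARAPL1 had 301, 337 and 292 normalized counts in Cas9 control DMSO and 457, 422 and 384 in Cas9 control ATRA, a difference that did not pass (adjusted p = 0.0532, limma; higher with the block), against the rise in HK3-null cells given above. The interaction of 1.16 (standard error 0.24, adjusted p = 0.0101, limma) passed in all 12 fits. GABARAPL2 had 1124, 1108 and 1084 in Cas9 control DMSO and 1047, 860 and 1003 in ATRA, but 1049, 1019 and 1034 in HK3-null DMSO and 1274, 1245 and 1173 in ATRA. Controls thus had lower values with ATRA and HK3-null cells higher ones, without overlap in either genotype (in controls adjusted p = 0.0517, limma; lower with the block), and the interaction was 0.44 (adjusted p = 0.0199, limma; 11 of 12 fits). MAP1LC3B, whose lipid-bound product is the usual marker of autophagosomes, had 556, 582 and 505 normalized counts in Cas9 control DMSO and 552, 559 and 638 in ATRA, which overlapped. In HK3-null cells it had 617, 628 and 621 in DMSO and 952, 971 and 850 in ATRA, far apart, with an interaction of 0.48 (adjusted p = 0.0264, limma; 3 of 12 fits).

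SQSTM1, the receptor p62, had 4597, 4934 and 4161 normalized counts in Cas9 control ATRA and 9261, 10624 and 8313 in HK3-null ATRA, beside the DMSO values given above. It rose with ATRA in both genotypes, 1.28-fold and 1.85-fold, and the interaction was 0.52 (adjusted p = 0.0433, limma; 3 of 12 fits). ATG2A, with 873, 950 and 1023 in Cas9 control DMSO and 1729, 1923 and 1873 in Cas9 control ATRA, had an interaction of 0.47 (adjusted p = 0.0345, limma; 3 of 12 fits). Without Cas9 control DMSO replicate 1 and Cas9 control ATRA replicate 3 together, 5 genes passed, and SQSTM1 and GABARAPL2 did not (adjusted p = 0.158 and 0.0575, limma).

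**Figure D4:**
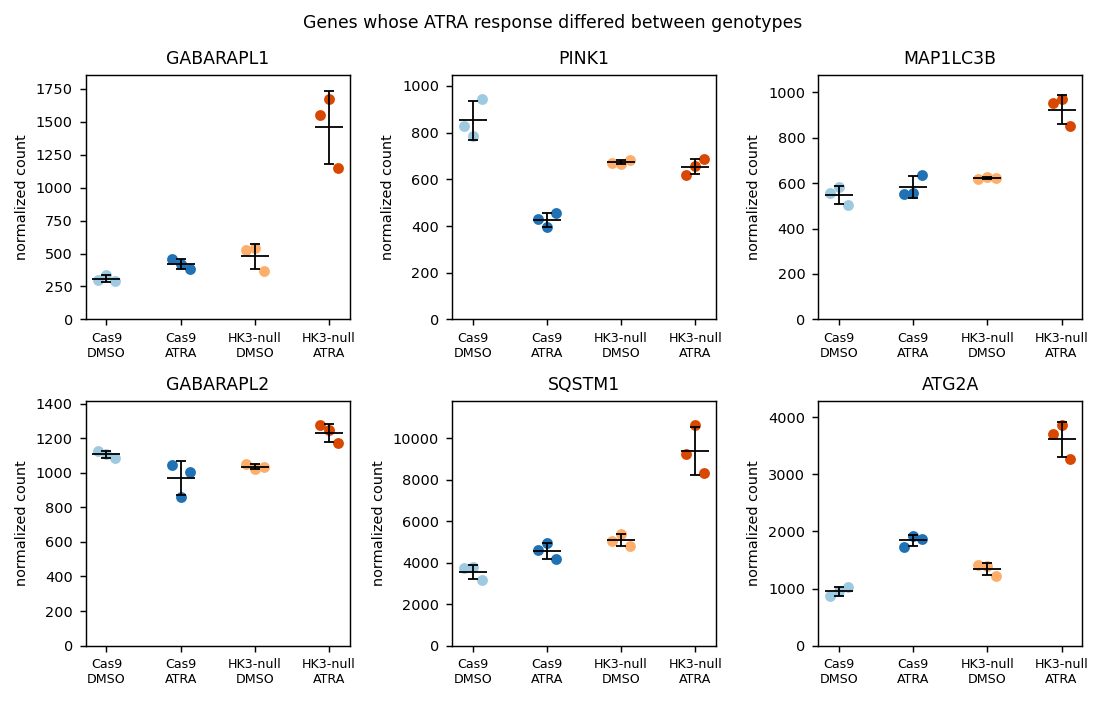
Normalized counts of the 6 genes with an interaction, by library (points) in the 4 groups, with the mean and SD of the 3 replicates as black bars and axes from 0. HK3-null ATRA is the highest group for GABARAPL1, MAP1LC3B, GABARAPL2, SQSTM1 and ATG2A, while PINK1 is lowest in Cas9 control ATRA.

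Chromatin accessibility was available for 8286 regions, each with the ATACseq signal (fragment density) of 8 libraries that the authors had reduced to equal numbers of tags. All of these regions differed at least 1.5-fold between the genotypes in ATRA, so the list was selected by that contrast, and its values in ATRA are a description. The contrast in DMSO was tested for 6214 regions with a mean signal above 17.1, and 42.7% of them were higher and 43.9% lower in HK3-null cells. The regions list 12 of the 46 autophagy genes in 14 regions, 9 of which were tested. In DMSO 2 of the 9 were higher and 3 lower. The 2 higher regions, both of EPG5, and the lower region of ATG4D passed the filter only through the genotype in which they were high, so no p is given for them and the count is a description. In ATRA 8 of the 14 were higher and 6 lower, where 54.9% and 45.1% of all 8286 regions were, and all 14 had the same direction in DMSO, as had 98.3% of all regions.

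Just 1 of the 14 regions covered the start of its gene. It lies at chr17:19866947-19867998 and overlaps an exon of ULK2. Its signal was 6.69 and 6.28 in Cas9 control DMSO, 8.59 and 6.8 in Cas9 control ATRA, 27.3 and 27.3 in HK3-null DMSO, and 11.9 and 33.9 in HK3-null ATRA. All 4 HK3-null libraries were above all 4 control libraries, as the RNA of ULK2 was. The mean lay under the filter, so the region has no test.

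The tested region with the largest difference in DMSO lists ATG4D, whose RNA was lower in HK3-null DMSO. Its signal was 195 and 207 in Cas9 control DMSO and 9.56 and 8.65 in HK3-null DMSO, and 78 and 61.2 against 4.91 and 5.83 in ATRA. The genotypes were far apart in both treatments, with a log2 difference of −4.32 between the DMSO groups. It lies at chr19:10553768-10554504, 10.23 kb past the start of ATG4D and outside that gene, in an exon of the neighbour KRI1. The central 300 bases, chr19:10553987-10554286 on the plus strand of GRCh38, are printed to show that nearly all of them, 295, are KRI1 coding sequence (capitals).
ATG4D region: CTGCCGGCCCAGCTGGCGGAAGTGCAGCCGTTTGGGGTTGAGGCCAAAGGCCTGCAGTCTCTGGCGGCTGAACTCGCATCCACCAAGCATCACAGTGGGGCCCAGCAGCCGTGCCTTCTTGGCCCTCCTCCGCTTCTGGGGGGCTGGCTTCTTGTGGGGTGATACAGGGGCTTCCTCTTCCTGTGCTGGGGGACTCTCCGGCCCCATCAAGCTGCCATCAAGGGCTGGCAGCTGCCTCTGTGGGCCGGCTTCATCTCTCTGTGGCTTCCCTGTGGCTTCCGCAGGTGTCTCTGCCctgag

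EPG5 RNA was higher in HK3-null cells under both treatments, by 0.57 in DMSO and 0.87 in ATRA on the log2 scale, and with the median of its chromosome subtracted the difference in DMSO was 0.51 and did not pass (adjusted p = 0.0579, limma). The gene is listed by 2 regions. The region at chr18:45837622-45837982, 129.53 kb from the start and in an exon of SIGLEC15, had 2.29 and 2 in Cas9 control DMSO and 53.8 and 39.4 in HK3-null DMSO (log2 difference 3.91). The intronic region at chr18:45951301-45951739, 15.81 kb from the start, had 4.08 and 8.75 against 57.6 and 46.9 (log2 difference 2.91). Both were low in controls and high in HK3-null cells, and in ATRA likewise, with 4.91 and 4.82 against 66 and 51.5, and 3.92 and 2.1 against 46.4 and 47.

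The regions of NBR1 and UVRAG were lower in HK3-null DMSO, with 60.1 and 51.3 against 22.8 and 22.8 for NBR1 (log2 difference −1.25, adjusted p = 0.000922, limma) and 40.8 and 30.8 against 16.4 and 22 for UVRAG (log2 difference −0.87, adjusted p = 0.0276, limma). The NBR1 region lies at the end of that gene and also in an exon of its neighbour TMEM106A. NBR1 RNA was higher in the same cells, and UVRAG RNA did not pass. The region of TFEB, inside the gene and 11.95 kb from its start, had high signal in all libraries, with 195 and 221 in Cas9 control DMSO and 312 and 289 in HK3-null DMSO. Its genotypes did not overlap, yet the log2 difference of 0.53 did not pass (adjusted p = 0.0774, limma). In ATRA it had 235 and 150 against 324 and 418.

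The regions of SQSTM1, ATG10 and ATG13 were tested and did not pass in DMSO. The ATG13 region lies outside that gene, in an exon of its neighbour ARHGAP1 and 59.43 kb past the start of ATG13. That of SQSTM1, near the end of the gene and also in an exon of MRNIP, had 7.15 and 14.9 in Cas9 control DMSO and 68 and 38.6 in Cas9 control ATRA, but 11.3 and 8.31 in HK3-null DMSO and 21.2 and 14.9 in HK3-null ATRA. The control libraries with ATRA stood above all others, whereas SQSTM1 RNA was highest in HK3-null ATRA. The ATG10 region had 48.3 and 47.1 against 33.2 and 33.4 in DMSO and 67.2 and 54.4 against 20.5 and 28.9 in ATRA, and the ATG13 region 30.2 and 36.5 against 40.2 and 49.8 in DMSO and 29.8 and 21.1 against 65.6 and 75.4 in ATRA. ATG10 lies on the lowered chromosome 5, and the part of that shift in its region was not tested.

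The other regions were below the filter. WIPI2 had 2.08 and 2.8 in Cas9 control DMSO and 27.9 and 20.2 in HK3-null DMSO, and PIK3C3 had 18.5 and 11.7 against 3.44 and 5.54, while the RNA of both genes was higher in HK3-null cells. An intronic region of ATG5 had 5.91 and 12.9 against 11.5 and 10.9, which overlapped, and another had 1.75 and 3.38 against 9.92 and 5.25. By their means in DMSO, passed or not, signal and RNA differed in the same direction between genotypes for ULK2, WIPI2, EPG5, TFEB, ATG13, ATG5, ATG4D, ATG10 and UVRAG, and in opposite directions for NBR1, PIK3C3 and SQSTM1. The regions of ATG4D and ATG13 in this tally lie in neighbouring genes. Signals of SQSTM1 and of the first ATG5 region overlapped between the genotypes, and the UVRAG RNA difference was −0.03 and did not pass. No such tally was made over all regions, so this one is a description without a background.

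**Figure D5:**
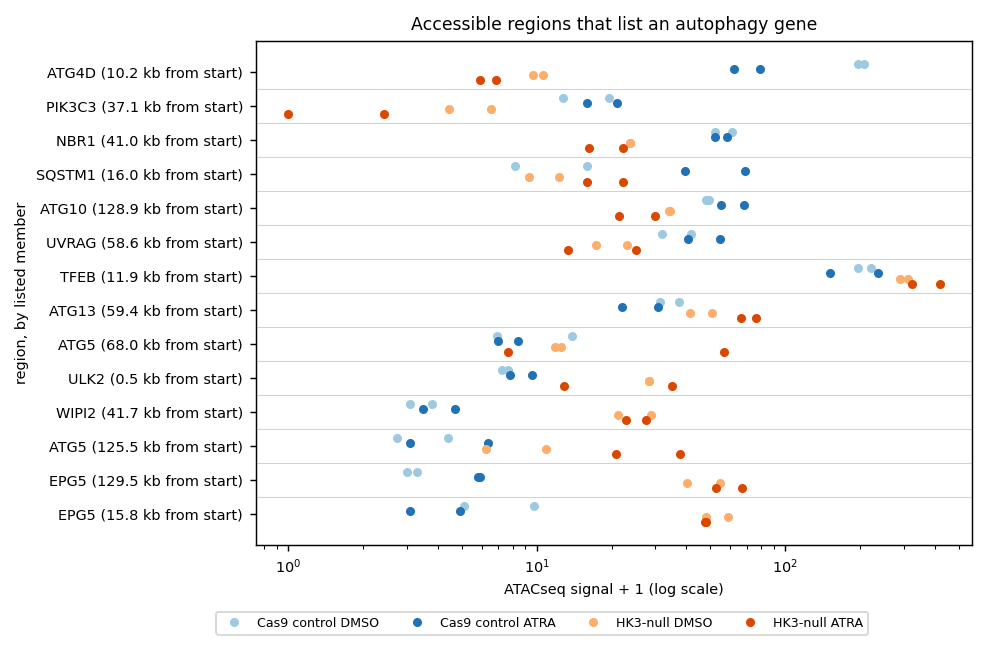
ATACseq signal + 1 on a log axis for the 14 regions that list an autophagy gene, with 1 point per library (2 in each of 4 groups) and the distance to the start of the gene beside its name. The ATG4D region has control signals from 61.2 to 207 and HK3-null signals from 4.91 to 9.56, and both EPG5 regions show the reverse order.

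Genes around the core machinery were described from 3 wider lists with 50 genes, of which 48 were tested. With ATRA 19 rose (39.6%, against 20.3% of all tested genes) and 10 fell (20.8%, against 21.3%) in Cas9 control cells, and 19 rose (39.6%, against 24%) and 9 fell (18.8%, against 25.1%) in HK3-null cells. In HK3-null against Cas9 control, 11 were higher (22.9%, against 27.9%) and 10 lower (20.8%, against 27.1%) in DMSO, both under the share of all genes. In ATRA 19 were higher (39.6%, against 29.6%) and 10 lower (20.8%, against 29.5%). With the replicate block, 20 rose (41.7%, against 27.5%) and 13 fell (27.1%, against 28.4%) with ATRA in Cas9 control cells. In HK3-null cells 23 rose (47.9%, against 30.6%) and 11 fell (22.9%, against 30.7%). Between genotypes, 15 were higher (31.2%, against 33.8%) and 13 lower (27.1%, against 32.9%) in DMSO with the block. In ATRA these were 23 (47.9%, against 35.3%) and 12 (25%, against 34.9%). The medians of the genotype differences were −0.01 and 0.16, below those of the core genes.

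Of 16 genes that control autophagy through mTORC1 and AMPK, 2 were higher and 4 lower in HK3-null DMSO, and 5 higher and 5 lower in ATRA. These are 12.5% and 25% of the list in DMSO and 31.2% in each direction in ATRA, under or near the shares of all genes just given. With the replicate block 2 were higher (12.5%) and 6 lower (37.5%) in DMSO, and 5 higher (31.2%) and 6 lower (37.5%) in ATRA. DEPTOR, an inhibitor of mTOR, had 44, 35 and 37 normalized counts in Cas9 control DMSO, 7, 7 and 9 in Cas9 control ATRA, 515, 540 and 501 in HK3-null DMSO and 24, 22 and 20 in HK3-null ATRA. It lies on chromosome 8, was higher in HK3-null cells in both treatments and fell with ATRA in both genotypes (log2 fold changes −2.34 and −4.56). Its log2 difference between genotypes in ATRA was 1.53, or 0.47 with the median of chromosome 8 subtracted (adjusted p = 0.0459, limma). DDIT4, a stress-induced inhibitor of mTORC1, rose with ATRA by 1.64 in Cas9 control and 1.30 in HK3-null cells. In ATRA its log2 difference, HK3-null against Cas9 control, was −0.61 (adjusted p = 0.000907, limma). SESN1, on chromosome 6, was higher in HK3-null cells by 1.21 in DMSO and 1.10 in ATRA. MLST8 and AKT1S1 were lower, with log2 differences of −0.51 and −0.67 in DMSO and −0.79 and −0.66 in ATRA. SESN3, a sestrin that restrains mTORC1, had 5430, 5523 and 5420 normalized counts in Cas9 control DMSO and 3252, 2961 and 3476 in ATRA, against 5067, 5350 and 4975 and then 6673, 5750 and 6259 in HK3-null cells, so it fell in controls and rose in HK3-null cells.

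Among 18 tested genes of other receptors and core factors, 6 were higher (33.3%, against 27.9% of all tested genes) and 2 lower (11.1%, against 27.1%) in HK3-null DMSO. In ATRA 8 were higher (44.4%, against 29.6%) and 2 lower (11.1%, against 29.5%). With the replicate block 9 were higher (50%, against 33.8%) and 3 lower (16.7%, against 32.9%) in DMSO. The block gave 10 higher (55.6%, against 35.3%) and 3 lower (16.7%, against 34.9%) in ATRA. RETREG1, a receptor for the endoplasmic reticulum that the files list as FAM134B, had 40, 32 and 27 normalized counts in HK3-null DMSO and 195, 184 and 293 in HK3-null ATRA, and 33, 39 and 40 against 85, 95 and 109 in Cas9 control cells. NCOA4, the receptor that brings ferritin to autophagosomes, was lower in HK3-null cells, by 0.58 in DMSO and by 1.19 in ATRA on the log2 scale, whereas the receptor adaptor TOLLIP was higher by 0.73 and 1.23. Of 14 genes for fusion with the lysosome, 3 were higher (21.4%, against 27.9%) and 4 lower (28.6%, against 27.1%) in DMSO. In ATRA 6 were higher (42.9%, against 29.6%) and 3 lower (21.4%, against 29.5%). The replicate block gave 4 higher and 4 lower in DMSO, and 8 higher and 3 lower in ATRA. Among the lower genes in both treatments, VPS18 and VPS39, subunits of the HOPS tether, lie on chromosome 15, whose median difference was −0.94 in DMSO and −0.97 in ATRA. Their log2 differences were −0.57 and −0.71 in DMSO and −0.47 and −0.52 in ATRA. With that median subtracted they turned to 0.37 and 0.23 in DMSO and 0.50 and 0.45 in ATRA, and the list had 4 higher and 2 lower genes in DMSO and 8 higher and 1 lower in ATRA. TECPR1, a tether of this step, had 864, 738 and 954 normalized counts in Cas9 control DMSO and 585, 528 and 526 in HK3-null DMSO, and 1339, 1304 and 1499 against 1552, 1511 and 1749 in ATRA.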

How the data were processed

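The 46 genes, the step lists and the wider lists were chosen with earlier results of these data known. The authors mapped directional RNAseq read pairs to GRCh38, and the deposited value of a gene is the log2 of its scaled and rounded count, in which 0 stands as the log2 of 0.001; the submitters' processing notes name DESeq2, the methods describe RPKM, and no scaling by length was seen. Counts before scaling were not used here, so no count test was run. ATACseq reads were aligned by the authors using bwa mem, regions were merged from MACS2 peaks, and each deposited region has a signal (fragment density) for which depth is unknown.

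The deposited log2 values were fitted in R 4.3.3 with limma 3.58.1 (lmFit, eBayes with trend) over all 12 libraries with a mean per group, and p values were adjusted by Benjamini-Hochberg over 13256 genes. ATACseq signal was fitted as log2(signal + 1) over 6214 regions. Entries without a gene name, at most 0.00926% of the normalized counts, were left out. Some markers of other lineages are not reported here.

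Replicate numbers were taken from the sample titles. Deviations from group means were correlated over 10664 genes averaging 50 or more normalized counts. They gave 0.176 to 0.632 for the 18 same-number pairs of RNAseq libraries and −0.643 to 0.287 for the 36 pairs with different numbers, so the numbers pair the libraries. As in the methods of the study, replicate number is not in the main fit. The fit with it as a block is given beside the counts of the 46 genes that it moves and those of the wider lists. The methods describe a 2-way analysis of log2 RPKM with a fold limit, in place of which limma, adjusted p values and calls without a fold limit were used on the deposited values. Values in every library, or for some a mean and SD, are given for the 3 genes with the largest rise and fall in each contrast. These were taken among genes past the threshold without overlap between groups. Values are also given for genes with an interaction in the main fit, and HK3 was added as the targeted gene. For genes with a region, the ATACseq signal in every DMSO library is given. Alternatives were quantile normalization, log2(count + 1), no filter on low values, only the groups compared, the replicate block, subtraction of chromosome medians, and leaving out each library. Gene positions and promoters came from RefSeq, exons from GENCODE v44. Counting intervals are binomial intervals on sums of normalized counts. They are approximate, because counts before scaling were not recovered.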

Additional observations from a re-analysis of the deposited data

Results flagged for a closer look

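The ATRA response differed between the genotypes, by limma's test of the interaction, for 6 autophagy genes and 4 genes of the wider lists. Positive values mean a signed log2 change with ATRA that lies higher in HK3-null than in Cas9 control cells, which for PINK1 is a fall in controls that HK3-null cells did not show past the threshold. Among the autophagy genes the values were 1.16 for GABARAPL1 (adjusted p = 0.0101), 0.95 for PINK1 (adjusted p = 0.000454), 0.52 for SQSTM1 (adjusted p = 0.0433), 0.48 for MAP1LC3B (adjusted p = 0.0264), 0.47 for ATG2A (adjusted p = 0.0345) and 0.44 for GABARAPL2 (adjusted p = 0.0199). In the wider lists they were 1.38 for RETREG1, listed as FAM134B (adjusted p = 0.016), 1.04 for SESN3 (adjusted p = 6.96e-05), 0.85 for TECPR1 (adjusted p = 0.0032) and −2.22 for DEPTOR (adjusted p = 0.000317). TECPR1 was lower in HK3-null cells under DMSO and did not pass in ATRA, and SESN3 had nearly equal counts in both genotypes under DMSO. Of the 5 maturation markers, 4 had an interaction below 0 and TGM2 one above 0 (3.96), and their part in these differences was not tested.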

How the results depend on the processing

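The numbers of genes that rose or fell stayed within 1.5 times of those reported under quantile normalization, log2(count + 1), fits of only the groups compared and subtraction of chromosome medians. With the replicate block the falls with ATRA numbered 12 in Cas9 control and 10 in HK3-null cells and the interactions 16, and without a filter on low values the falls with ATRA in HK3-null cells numbered 3; no other count moved so far under the block. Leaving out 1 library at a time gave 11 to 14 rises and 6 to 9 falls with ATRA in Cas9 control cells, 19 to 22 rises and 3 to 6 falls in HK3-null cells, 18 to 22 higher and 6 to 6 lower genes in HK3-null DMSO, 27 to 31 higher and 3 to 4 lower genes in HK3-null ATRA, 2 to 8 interactions, and 4 to 6 ATACseq regions past the threshold in DMSO. Without a filter on the mean signal 9 of the regions passed in place of 5. Under quantile normalization BNIP3L and ATG10 with ATRA in Cas9 control cells (adjusted p = 0.103 and 0.142), ATG16L1 between genotypes in DMSO (adjusted p = 0.0719) and ATG101 in ATRA no longer passed. With chromosome medians subtracted, ATG10 and ATG12 no longer passed as lower in HK3-null cells in either treatment. ATG10 in ATRA turned from −0.67 to 0.12 (adjusted p = 0.526, limma). Among the higher genes, ATG5, TFEB, BNIP3L and EPG5 no longer passed in DMSO, nor did ATG101 in ATRA. PIK3C3 and BECN1 with ATRA in HK3-null cells no longer passed either. By construction this subtraction removes shifts shared along a chromosome. Leaving out Cas9 control DMSO replicate 1 and Cas9 control ATRA replicate 3 together was chosen after seeing the data and gave 12 rises and 6 falls with ATRA in Cas9 control cells, 21 and 6 in HK3-null cells, 20 higher and 6 lower genes in DMSO, 29 and 3 in ATRA and 5 interactions. ATACseq replicate numbers did not pair the libraries (12 same-number pairs, correlations −0.209 to 0.054), and a replicate block there left 5 regions past the threshold. A cause of these changes was not tested. Low counts limit ULK2, WIPI1 and TFEB in Cas9 control DMSO.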
